A study of Mus musculus with 43 samples.

Results

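The 10 transcripts described here encode the main hormones and transmitter products of enteroendocrine cells: Pyy, Gcg, Cck, Sct, Nts, Gip, Ghrl, Sst, Tac1 and Tph1. They were found by symbol in 3 bulk RNA tables, where they are 10 of 23951 listed genes, and in 7 single-cell libraries, where they are 10 of 54307. The question was which of them carry the rise on day 7 (D7) and the fall on day 11 (D11) in intestinal organoids given the cytokine TGFB1, and which cells hold the transcripts.

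Organoids were primary cultures of intestinal epithelium from wild-type C57BL/6 mice. For bulk RNA, 6 groups of 3 libraries were made. D7 non-IR organoids were not irradiated and spent the last 24 h, from day 6, in vehicle or in TGFB1 at 2 ng/mL. D7 IR organoids received 4 Gy on day 4 and then the same vehicle or TGFB1 exposure, and D11 IR organoids were treated in the same way but collected on day 11, so that they had received a 24 h pulse of TGFB1 that ended before collection. Single organoid cells were collected on day 8 after 4 Gy on day 4, with 1 library each for vehicle for 24 h (called 0 h below) and for 1 ng/mL TGFB1 for 6, 15 and 24 h. Further single-cell libraries held sorted Ki67-RFP+ DAPI- crypt cells, that is living cycling cells, from the proximal small intestine of Mki67tm1.1Cle/J reporter mice, 1 from non-irradiated mice and 2 taken 56 h after 12 Gy of whole-body irradiation. The dose of TGFB1 and the day of collection differed between the bulk and single-cell organoids. Nothing in the labels says that the 3 bulk libraries of a group came from separate mice or cultures, so p-values measure only the spread between these libraries.

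Enteroendocrine cells are scattered hormone-secreting cells of the gut lining that arise from crypt progenitors through the transcription factor Neurog3 and store peptides in granules with chromogranins. In the classic scheme, L cells make glucagon-like peptides from the Gcg product together with peptide YY, which slows transit and curbs appetite. I cells make cholecystokinin (Cck), K cells gastric inhibitory polypeptide (Gip), S cells secretin (Sct), X cells ghrelin (Ghrl), N cells neurotensin (Nts) and D cells the inhibitory peptide somatostatin (Sst). Enterochromaffin cells make serotonin through tryptophan hydroxylase 1 (Tph1) and substance P from Tac1. Single cells often express several of these genes at once. TGFB1 signals through receptor kinases and SMAD proteins and, in injured gut epithelium, accompanies a state marked by Clu and Anxa1 that is termed regenerative or fetal-like.

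Proximal promoters are shown for the member whose level changed most with TGFB1 (Pyy), the member that added most transcript on D7 (Cck) and the one that lost most on D11 (Gcg). Each is the 250 bases before a start site in RefSeq, build GRCm38.p6, minus strand, 5′ to 3′, and capitals mark E-box letters (CANNTG), the kind of site that Neurog3 and Neurod1 can bind. Pyy lies at chr11:102107833-102108082 (the more upstream of 2 listed starts), Cck at chr9:121495695-121495944 and Gcg at chr2:62483654-62483903.
Pyy: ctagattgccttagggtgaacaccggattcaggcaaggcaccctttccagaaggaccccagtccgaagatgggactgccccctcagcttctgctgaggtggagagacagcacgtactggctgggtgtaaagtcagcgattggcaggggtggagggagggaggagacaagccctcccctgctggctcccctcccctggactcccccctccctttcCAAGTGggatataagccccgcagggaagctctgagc
Cck: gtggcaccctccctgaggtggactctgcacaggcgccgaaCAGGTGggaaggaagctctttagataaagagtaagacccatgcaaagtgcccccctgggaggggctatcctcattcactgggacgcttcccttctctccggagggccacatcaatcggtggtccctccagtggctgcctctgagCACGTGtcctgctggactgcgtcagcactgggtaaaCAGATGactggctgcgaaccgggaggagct
Gcg: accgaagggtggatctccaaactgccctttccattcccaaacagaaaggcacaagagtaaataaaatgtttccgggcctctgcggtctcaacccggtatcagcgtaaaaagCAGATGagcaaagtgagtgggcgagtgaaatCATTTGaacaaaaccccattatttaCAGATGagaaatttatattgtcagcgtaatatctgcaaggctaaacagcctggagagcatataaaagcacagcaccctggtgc
The window of Pyy held 1 E-box match and those of Cck and Gcg held 3 each. All 10 members had a promoter in the RefSeq table, and 9 of them held at least 1 match at any listed start. Of 32851 mouse promoters of the same length, 66.2% held a match. Ghrl had 4 listed starts and Pyy and Tph1 had 2 each, so counts of members and of promoters are not like for like. The letters CAGAC of a SMAD site, searched on both strands, stood at any start in 3 of the 10 (Ghrl, Gip and Tph1) and in 42.2% of all promoters. These are matches of letters, not measured binding.

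In D7 IR organoids every one of the 10 transcripts was higher with TGFB1, and the TGFB1 and vehicle libraries of no member overlapped. In this comparison limma called 75.5% of 11258 tested genes, 35.8% higher and 39.7% lower. The TGFB1 libraries lay wholly above vehicle for 37.1% of genes. At least 2-fold rises, 7.79% of genes, comprised 5 members (Pyy, Cck, Gcg, Gip and Ghrl). The median member change was 1.00 on the log2(FPKM + 1) scale, beside -0.03 for all genes tested. FPKM, a fragment count scaled to transcript length and library size, is a level per length; fold changes of low genes are understated by the added 1. In D7 non-IR organoids the picture was mixed, with 2 members higher, 3 lower and 5 not called, where 68.2% of 11330 tested genes were called, 33.3% higher and 34.9% lower. Of all tested genes 5.52% were called at least 2-fold higher and 2.92% lower there, against 1 member each way (Pyy and Nts). In D11 IR organoids 7 members were lower and none higher, where 63.9% of 11479 tested genes were called, 32.3% higher and 31.6% lower. The member median was -0.05 in D7 non-IR and -1.12 in D11 IR. In bulk RNA, more or fewer cells of a type and more or less RNA per cell cannot be told apart.

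**Figure D1:**
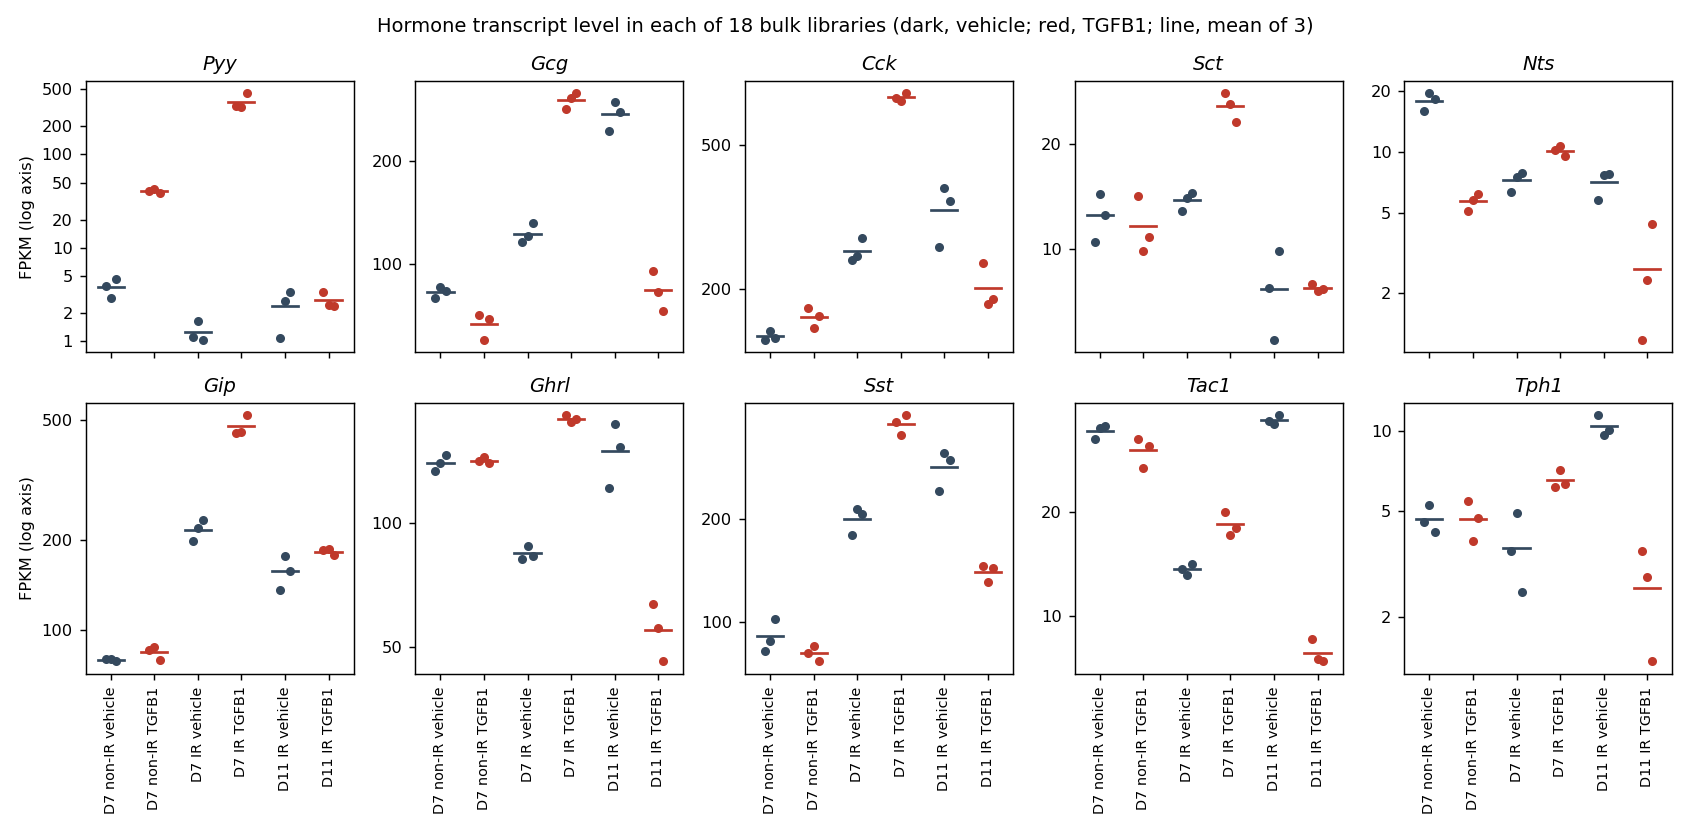
FPKM of each hormone transcript in each of 18 bulk libraries, on log axes that differ between panels, with dark points for vehicle, red points for TGFB1 and a line at the mean of 3. In D7 IR the red points lie above the dark ones in all 10 panels, and in D11 IR they lie below in the panels of Gcg, Cck, Nts, Ghrl, Sst, Tac1 and Tph1.

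The L-cell product Pyy had the largest change of the 10 in both D7 comparisons. In D7 IR it was at 1.11, 1.67 and 1.03 FPKM in the vehicle libraries and at 329, 325 and 450 FPKM with TGFB1. These are the groups with the lowest and the highest mean of the 6, and the change was 7.34 ± 0.17 (log2, SE; limma adjusted p = 1.82e-07), or 289-fold between the group means. In D7 non-IR it was at 3.89, 2.88 and 4.62 FPKM with vehicle and at 40.3, 42.9 and 38.3 FPKM with TGFB1. That rise, without irradiation, was 3.13 ± 0.12 (log2, SE; limma adjusted p = 1.27e-07). On D11 its levels were 1.08, 2.68 and 3.37 FPKM with vehicle and 3.40, 2.43 and 2.41 FPKM with TGFB1. These groups overlapped, with a difference of 0.21 ± 0.26 (limma adjusted p = 0.511), so 4 days after the pulse Pyy was again at a few FPKM. Ppy, its close relative, was listed at 0 FPKM in all but 1 library.

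Gcg, the other L-cell gene, did not follow Pyy. In D7 non-IR it was at 79.8, 85.5 and 83.3 FPKM with vehicle and slightly lower, at 70.8, 60.02 and 69.3 FPKM, with TGFB1 (log2 change -0.31 ± 0.06, limma adjusted p = 0.000834). In D7 IR it was at 116, 121 and 131 FPKM with vehicle and at 284, 305 and 315 FPKM with TGFB1, 2.46-fold apart in means (1.29 ± 0.05, limma adjusted p = 8.19e-09). In D11 IR the vehicle libraries had reached 244, 297 and 279 FPKM, while those given the TGFB1 pulse were at 95.6, 82.9 and 72.9 FPKM. The fall was 1.70 on the log2 scale, -1.70 ± 0.12 (limma adjusted p = 1.73e-06). Across the 18 libraries, which share their 3 tables, the log2 levels of Pyy and Gcg had a Pearson r of 0.326, whereas Gcg had one of 0.941 with Sst.

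The upper-gut hormones Cck, Gip and Sct rose together on D7 IR and parted on D11. Cck, which drives gallbladder contraction and pancreatic enzyme release, went from 240, 246 and 276 FPKM with vehicle to 674, 659 and 693 FPKM with TGFB1 in D7 IR. It was the most abundant member there and 2.66-fold higher in means (1.41 ± 0.05, limma adjusted p = 2.98e-09). D11 IR levels were 261, 379 and 350 FPKM with vehicle and at 236, 181 and 187 FPKM with TGFB1, a lower level without overlap (-0.70 ± 0.16, limma adjusted p = 0.00292). In D7 non-IR it stood at 144, 153 and 146 FPKM with vehicle and 177, 156 and 168 FPKM with TGFB1, a small rise (0.17 ± 0.05, limma adjusted p = 0.00667). That call was lost when libraries were scaled to the same FPKM sum (adjusted p = 0.0588).

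Gip, the incretin of K cells, was the one member with all D11 TGFB1 libraries above the vehicle ones. In D7 IR it rose from 198, 218 and 232 FPKM to 451, 456 and 520 FPKM (1.14 ± 0.07, limma adjusted p = 2.94e-07). D11 IR levels were 136, 177 and 158 FPKM with vehicle and at 185, 186 and 177 FPKM with TGFB1. All 3 TGFB1 libraries lay above the vehicle ones, but the difference did not pass the test (0.22 ± 0.11, limma adjusted p = 0.0869). With libraries scaled to the same FPKM sum it was 0.37 and passed. Sct, which stimulates bicarbonate secretion, was also not called on D11, at far lower FPKM. It went from 12.8, 14.0 and 14.5 FPKM to 27.9, 26.0 and 23.1 FPKM in D7 IR (0.85 ± 0.07, limma adjusted p = 1.2e-06), and in D11 IR the groups overlapped, at 7.70, 5.47 and 9.87 FPKM against 7.93, 7.54 and 7.64 FPKM (0.04 ± 0.16, limma adjusted p = 0.857). In D7 non-IR neither was called, with changes of 0.08 ± 0.04 for Gip (limma adjusted p = 0.093) and -0.10 ± 0.15 for Sct (limma adjusted p = 0.587).

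Ghrl, whose product stimulates appetite, and Sst, whose product restrains other endocrine cells, rose on D7 IR and fell on D11 IR. Ghrl was at 81.8, 87.9 and 83.3 FPKM with vehicle and at 182, 175 and 178 FPKM with TGFB1 in D7 IR (1.07 ± 0.04, limma adjusted p = 2.43e-09). In D11 IR it was at 121, 173 and 152 FPKM with vehicle and at 63.7, 55.7 and 46.3 FPKM with TGFB1, fully apart in the opposite direction (-1.41 ± 0.15, limma adjusted p = 3.04e-05). Without irradiation its 2 groups overlapped (0.02 ± 0.04, limma adjusted p = 0.68). Sst went from 180, 213 and 206 FPKM to 384, 352 and 403 FPKM in D7 IR (0.93 ± 0.07, limma adjusted p = 1.33e-06). In D11 IR it was at 241, 312 and 297 FPKM with vehicle and at 145, 130 and 144 FPKM with TGFB1 (-1.01 ± 0.11, limma adjusted p = 3.95e-05). In D7 non-IR its difference was -0.16 ± 0.07 (limma adjusted p = 0.0894).

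The enterochromaffin genes Tac1 and Tph1 had small D7 IR changes and the deepest D11 falls. Tac1 was at 13.7, 13.1 and 14.1 FPKM with vehicle and at 20.1, 17.2 and 17.98 FPKM with TGFB1 in D7 IR (0.40 ± 0.06, limma adjusted p = 0.000127). In D11 IR it was at 36.8, 36.0 and 38.3 FPKM with vehicle and at 8.59, 7.52 and 7.38 FPKM with TGFB1, so the TGFB1 mean was 0.211 of the vehicle mean (-2.11 ± 0.08, limma adjusted p = 5.11e-08). Tph1 was at 3.56, 4.91 and 2.50 FPKM with vehicle and 6.16, 7.13 and 6.35 FPKM with TGFB1 in D7 IR (0.73 ± 0.17, limma adjusted p = 0.0049). Its D11 levels were 11.5, 9.61 and 10.1 FPKM with vehicle and 3.55, 2.84 and 1.37 FPKM with TGFB1 (-1.72 ± 0.22, limma adjusted p = 0.000215). In D7 non-IR, Tac1 was lower by a small amount (-0.18 ± 0.07, limma adjusted p = 0.0297), a call lost without the low-level filter (adjusted p = 0.0728), and Tph1 was at 4.68 FPKM in both group means.

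Nts, which encodes the ileal peptide neurotensin, was lower with TGFB1 where no irradiation had been given. It was at 15.8, 19.4 and 18.1 FPKM with vehicle and at 5.12, 5.79 and 6.16 FPKM with TGFB1 in D7 non-IR (-1.49 ± 0.08, limma adjusted p = 4.5e-08). In D7 IR the direction was the opposite, from 6.36, 7.50 and 7.90 FPKM to 10.2, 10.7 and 9.54 FPKM (0.44 ± 0.08, limma adjusted p = 0.000388). That rise did not pass in a fit of all 18 libraries together (adjusted p = 0.0959). In D11 IR it was at 5.77, 7.68 and 7.76 FPKM with vehicle and at 1.18, 2.33 and 4.39 FPKM with TGFB1 (-1.24 ± 0.32, limma adjusted p = 0.0137). Without the third vehicle library that fall missed the threshold (adjusted p = 0.054).

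The effect of TGFB1 differed between irradiated and non-irradiated organoids for all 10 members on D7, each more positive after irradiation (limma interaction, where 53.1% of 11411 tested genes were called, 25.3% in that direction). The interaction was 4.21 for Pyy and 1.92 for Nts on the log2 scale, and ranged from 0.59 (Tac1) to 1.60 (Gcg) for the others. That of Tph1 (0.73, adjusted p = 0.0166) missed the threshold in a fit of all 18 libraries (adjusted p = 0.0546). The effect also differed between D11 and D7 in irradiated organoids for all 10, each more negative on D11 (64.5% of 11456 tested genes called, 33% in that direction). It ranged from -0.82 for Sct and -0.91 for Gip to -7.13 for Pyy, with -2.99 for Gcg. Both comparisons use the D7 IR libraries, and they cross tables that were deposited separately. Gcg, Nts and Tac1 thus passed the test in opposite directions in D7 non-IR and D7 IR, and Gcg, Cck, Nts, Ghrl, Sst, Tac1 and Tph1 did so in D7 IR and D11 IR.

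**Figure D2:**
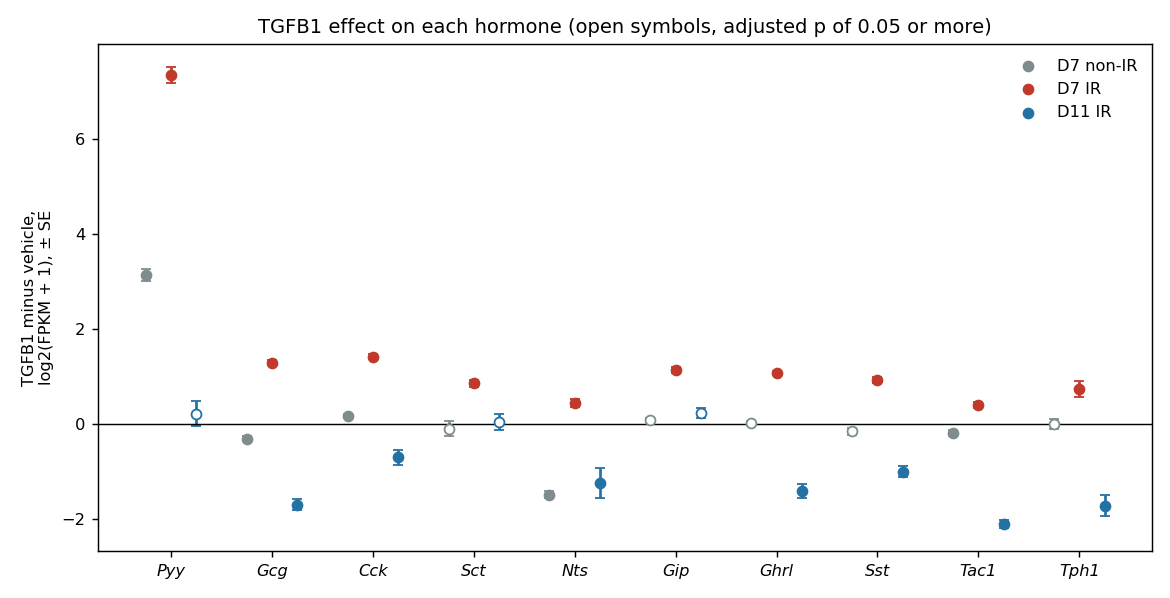
TGFB1 minus vehicle on the log2(FPKM + 1) scale, with SE from limma, for each hormone in D7 non-IR (grey), D7 IR (red) and D11 IR (blue), with open symbols for adjusted p of 0.05 or more. All red symbols are above 0, led by Pyy at 7.34, while blue symbols are filled and below 0 for 7 hormones and open for Pyy, Sct and Gip.

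The 10 transcripts together summed to 916 ± 58.9 FPKM (SD, n = 3) with vehicle and 2439 ± 154 FPKM with TGFB1 in D7 IR. Of the 1523 FPKM added, Cck accounted for 27.7%, Pyy for 24.1%, Gip for 17.1%, Sst for 11.8%, Gcg for 11.7% and Ghrl for 6.17%. Pyy, 0.139 ± 0.0371% of the sum with vehicle, made up 15.0 ± 1.90% with TGFB1, whereas the share of Cck stood at 27.7% in both. In D11 IR the sum went from 1258 ± 172 to 686 ± 55.2 FPKM. Of that net loss, Gcg took 33.2%, Sst 25.2%, Cck 22.6% and Ghrl 16.4%, and Tac1, the deepest fall by fold, took 5.11%. In D7 non-IR the sum was 613 ± 23.3 FPKM with vehicle and 632 ± 17.2 FPKM with TGFB1, and a gain of 36.7 FPKM in Pyy stood against losses of 16.1 in Gcg and 12.1 in Nts.

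**Figure D3:**
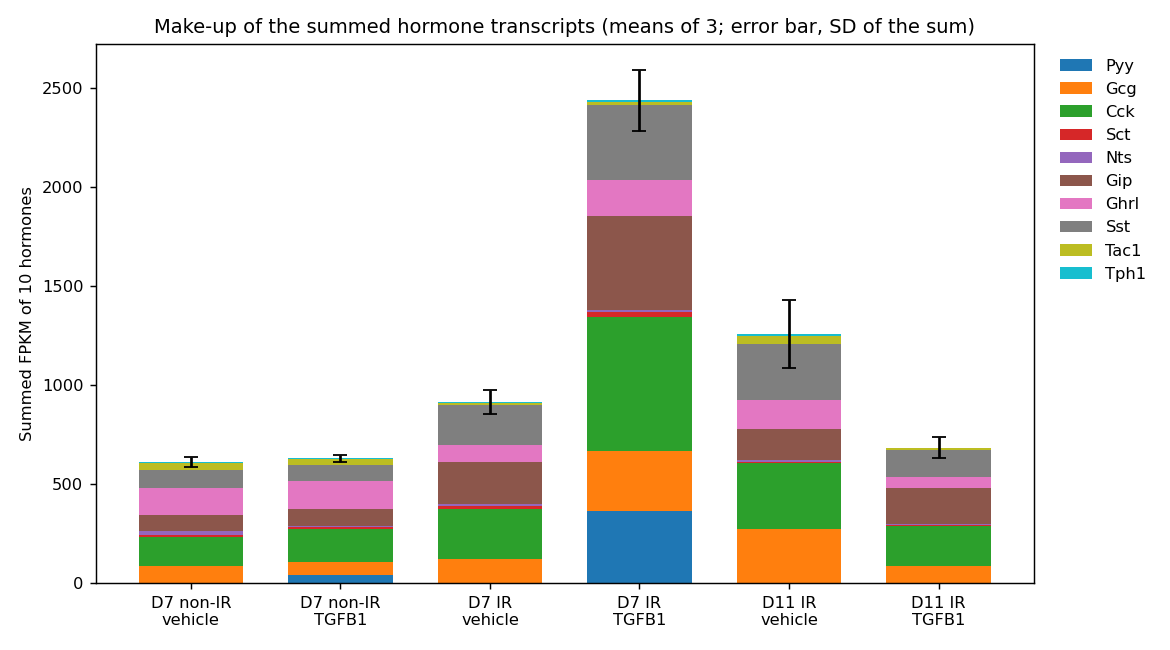
Mean FPKM of the 10 hormone transcripts stacked for each bulk group of 3 libraries, with the SD of the sum as error bar. The D7 IR TGFB1 bar reaches 2439 FPKM, against 916 FPKM for its vehicle, and the D11 IR bar falls from 1258 to 686 FPKM.

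Across the 6 groups, set side by side from separately deposited tables, 7 members had their highest mean in D7 IR TGFB1: Pyy, Gcg, Cck, Sct, Gip, Ghrl and Sst. For Gcg the D11 IR vehicle libraries overlapped that group. Tac1 and Tph1 were highest in D11 IR vehicle, at 37.0 ± 1.16 and 10.4 ± 0.969 FPKM, and Nts in D7 non-IR vehicle, at 17.8 ± 1.82 FPKM. Pyy was in order 368, 40.5, 3.79, 2.75, 2.37 and 1.27 FPKM in D7 IR TGFB1, D7 non-IR TGFB1, D7 non-IR vehicle, D11 IR TGFB1, D11 IR vehicle and D7 IR vehicle, and the lower 4 overlapped each with the next.

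Genes with the nearest pattern were sought among 11472 genes by Pearson r of log2(FPKM + 1) over the 18 libraries, as a description. For Pyy these were C2cd4b and Cd151 (both 0.984) and Dbndd2 (0.976). Sst was followed by Sidt2 (0.975), Fev (0.973) and Wdtc1 (0.971), Gcg by Resp18 (0.959), Tcea3 (0.953) and Arap1 (0.948), and Tph1 by Chgb (0.918), 4930404N11Rik (0.903) and Pisd-ps3 (0.902). Resp18, a granule protein, Chgb, a chromogranin, and Fev, a transcription factor of serotonin cells, belong to the enteroendocrine marker list. None of the 3 nearest genes of Pyy does, and the same holds for Cck, Gip, Ghrl, Sct, Nts and Tac1. Cck was followed by 1810058I24Rik (0.967), Lgals9 and Psme1, Gip by Hsd3b3 (0.986), Cx3cl1 and Fblim1, and Ghrl by Wipf3 (0.966), Oplah and Relb. Sct was followed by Tapbpl (0.945), Sema6d and Scoc, Nts by Guca2a (0.907), Bst1 and Dyrk2, and Tac1 by the gene listed as Taz (0.978), Icosl and Tap1.

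Other gut hormones were also higher in D7 IR and mixed elsewhere. Of 18 listed, 7 were tested in D7 IR and all 7 were higher (35.8% of all tested genes were), among them Gast, the gene of gastrin (4.17 to 9.42 FPKM, log2 change 1.01, limma adjusted p = 0.0156), and Guca2b, the gene of uroguanylin (1318 to 2208 FPKM, log2 change 0.75). In D7 non-IR 5 were tested, none higher and 2 lower, Guca2a (561 to 312 FPKM, -0.85) and Guca2b (322 to 205 FPKM, -0.66). Of all tested genes 33.3% were higher and 34.9% lower there. In D11 IR 6 were tested, with 3 lower, among them Guca2a (302 to 132 FPKM, -1.18). The 2 higher ones were Nucb2 (4.12 to 10.8 FPKM, 1.19) and Gast (2.79 to 6.75 FPKM, 1.03). Over all tested genes 31.6% were lower and 32.3% higher, so the part called higher was near that of all genes.

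Most genes of hormone granules were higher in D7 IR, while in D11 IR more were lower than higher. Of 19 listed genes, 17 were tested in D7 IR, with 15 higher and 1 lower (35.8% and 39.7% of all tested genes). Higher genes included Cpe, a prohormone carboxypeptidase (17.2 to 45.5 FPKM, 1.36, limma adjusted p = 5.01e-09), and Cplx2, a complexin of exocytosis (3.49 to 9.97 FPKM, 1.29). Pam, which amidates peptides such as PYY, was also higher (3.89 to 8.99 FPKM, 1.03). In D11 IR 16 were tested, with 9 lower and 2 higher (31.6% and 32.3% of all tested genes). The higher ones, named after their values were seen, were Pam (5.09 to 10.7 FPKM, 0.94) and Cpe (23.0 to 29.5 FPKM, 0.33). Chgb fell from 294 to 76.7 FPKM (-1.93, limma adjusted p = 2.19e-07), Pcsk1, the convertase that cuts the Gcg precursor, from 10.2 to 2.45 FPKM (-1.69), and Scg2 from 15.6 to 5.15 FPKM (-1.43). In D7 non-IR 15 were tested, with 4 higher, Pam among them (0.97), and 3 lower (33.3% and 34.9% of all tested genes).

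Transcription factors of the lineage were called in both directions in D7 IR. Of 24 listed, 13 were tested there, with 4 higher and 5 lower, shares near those over all genes (35.8% and 39.7%). The higher ones were led by Sox4 (47.2 to 199 FPKM, 2.05) and Foxa1 (27.1 to 77.7 FPKM, 1.49), which other epithelial cells also express. Neurog3, the determinant of the lineage, fell from 12 to 5.41 FPKM (-1.03, limma adjusted p = 1.40e-06) in D7 IR while all 10 hormone transcripts rose, and it also fell in D7 non-IR (5.96 to 3.25 FPKM, -0.73, limma adjusted p = 0.000712). In D11 IR 15 were tested, with 9 lower, among them Neurod1 (5.12 to 2.26 FPKM, -0.91) and Fev (10.5 to 5.34 FPKM, -0.87), and 4 higher, led by Foxa1 (27.2 to 87.8 FPKM, 1.66). Over all tested genes 31.6% were lower and 32.3% higher there. Of 18 hormone receptors only Sstr2, a somatostatin receptor, passed the low-level filter, in D7 non-IR, where it rose from 1.51 to 4.00 FPKM (1.00). Of 12 genes listed as nutrient-sensing receptors, only Gprc5a and Ffar4, the long-chain fatty acid receptor, were tested. Both rose in each of the 3 comparisons, but 2 genes cannot show a pattern of the list. Whether Gprc5a senses a nutrient was not tested. The part of all tested genes called higher was 33.3% without irradiation, 35.8% in D7 IR and 32.3% on D11. Ffar4 went from 8.56 to 16.4, from 4.02 to 8.45 and from 6.56 to 14.4 FPKM.

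Cell-type markers gave the following values beside these results. Summed FPKM of 17 enteroendocrine markers was 230 to 243 with vehicle and 224 to 234 with TGFB1 in D7 non-IR, 257 to 264 and 430 to 459 in D7 IR, and 473 to 507 and 169 to 199 in D11 IR, with none of the 17 listed at 0. Regenerative markers moved with TGFB1 in all 3 comparisons, with every marker that was tested called higher. Of all tested genes 33.3% were higher in D7 non-IR, 35.8% in D7 IR and 32.3% in D11 IR. Clu was at 179 to 208 FPKM with vehicle and 3839 to 4154 FPKM with TGFB1 in D7 IR, and at 72.1 to 85.4 and 3563 to 4352 FPKM in D11 IR. Mki67, a mark of cycling cells, went from 55.4 to 58.1 FPKM down to 9.9 to 12.9 FPKM in D7 IR. Markers of other differentiated cells moved in D7 IR as well. Paneth markers summed to 4634 to 5320 FPKM with vehicle and 8205 to 8338 FPKM with TGFB1 (6 of 7 tested higher), tuft markers to 18.9 to 21.2 and 32.0 to 33.0 FPKM (6 of 7 higher, 1 lower), and enterocyte markers to 14540 to 15655 and 21633 to 22525 FPKM (6 of 11 higher, 4 lower). Goblet markers had 0 of 8 higher and 7 lower, and stem markers 0 of 8 higher and 6 lower. Over all tested genes 35.8% were higher and 39.7% lower in D7 IR. In D11 IR, 5 of 7 Paneth, 2 of 7 tuft and 2 of 11 enterocyte markers were higher and 1, 3 and 5 were lower. The shares of all tested genes there were 32.3% higher and 31.6% lower. Tac1, Nts and Sst are also neuronal genes, and 8 enteric neuron and glia markers summed to at most 7.01 FPKM in any library. The part of these markers in the hormone changes was not tested. Each library listed 11040 to 11361 genes above 1 FPKM, and read depth is unknown because the tables hold no counts.

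The single-cell libraries kept 2932, 4283, 2890 and 2218 organoid cells at 0, 6, 15 and 24 h of TGFB1, with median depths of 6709 to 10441 UMIs (unique molecular identifiers, each one captured transcript). With 1 library per time there was no test, and intervals cover counting error only. Pyy was not detected at 0 h, where the exact 95% interval reaches 0.135 CPM, a UMI count scaled to the library total. It was at 0.278 CPM at 6 h (9 UMIs), 3.38 CPM at 15 h (95% Poisson interval 2.72 to 4.16) and 28.2 CPM at 24 h (26.3 to 30.1; 863 UMIs). Without the cell with most Pyy UMIs, the 24 h level was 20.2 CPM. Cck was at 5.81, 3.30, 11.8 and 43.1 CPM in time order. Of its 1319 UMIs at 24 h, 643 came from a single cell, without which it was at 22.1 CPM, still above the 0 h interval of 4.95 to 6.79 CPM.

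The other hormones followed several courses. Gip was at 6.66, 6.78, 19.5 and 19.5 CPM, a level reached by 15 h. Sct was at 2.89, 4.32, 6.58 and 8.10 CPM, higher at each later time, with overlapping intervals at 15 and 24 h. Gcg was lower at 6 h, at 3.95, 1.02, 2.59 and 7.02 CPM. Sst was at 2.93, 2.31, 2.32 and 5.03 CPM and Ghrl at 1.24, 1.26, 1.44 and 2.91 CPM, so that neither stood apart from 0 h until 24 h. Tac1 was at 0.768, 0.586, 1.94 and 2.22 CPM and Tph1 at 0.461, 0.314, 0.684 and 2.72 CPM. Nts had 3 to 13 UMIs per library, too few to order. For 9 of the 10 members, all but Nts, the 24 h interval lay above that at 0 h, as it did for 15.1% of 30796 genes with any UMI and 31% of 13619 genes with at least 50 UMIs. The directions on day 8 were thus those of D7 IR in bulk for the same 9, at another TGFB1 dose.

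**Figure D4:**
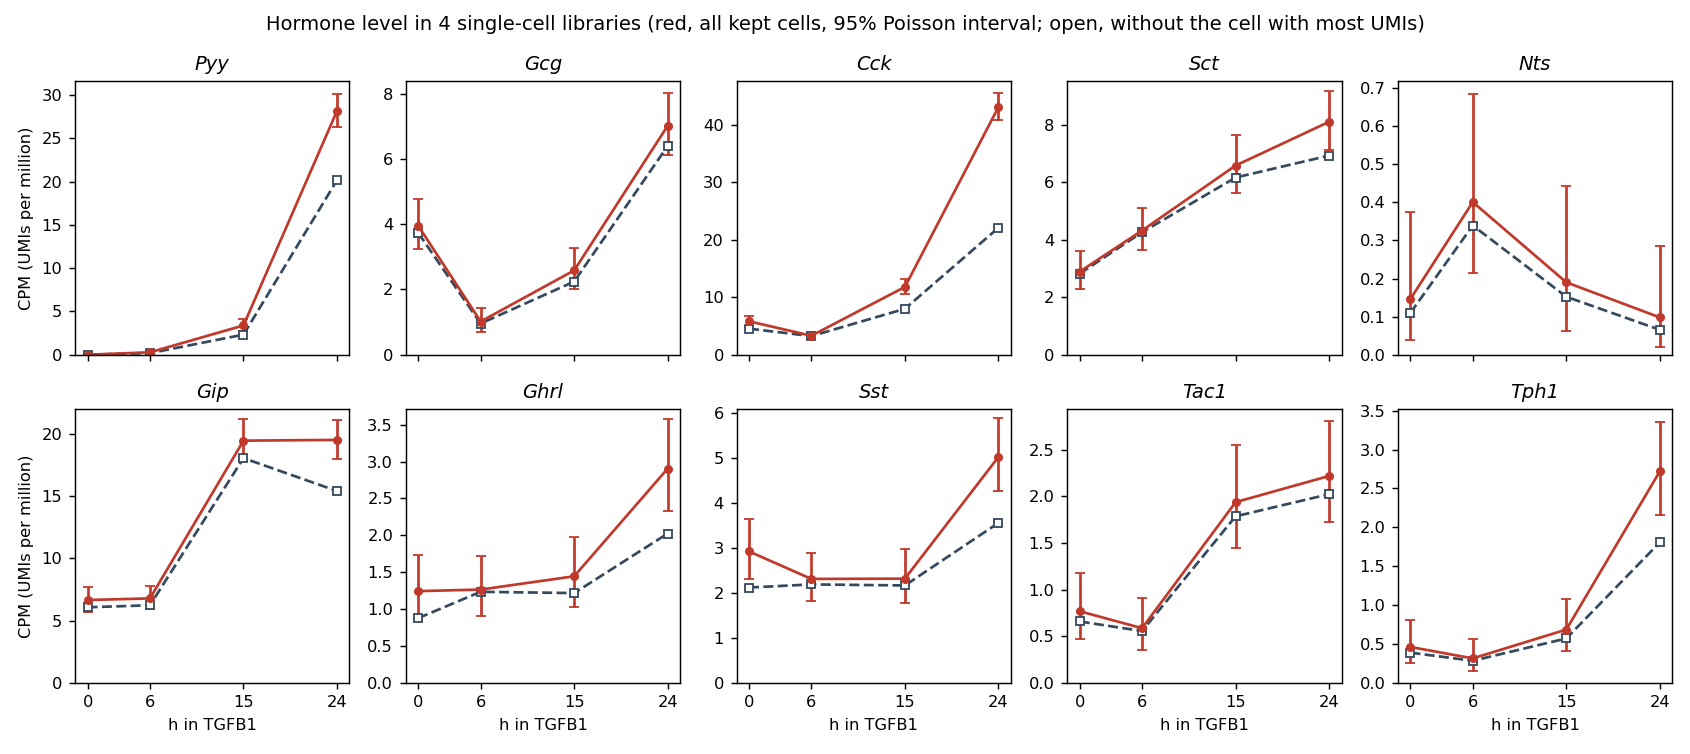
CPM of each hormone in the 4 organoid single-cell libraries against hours in TGFB1, red with 95% Poisson intervals for all kept cells and open squares without the single cell holding most UMIs. Pyy goes from 0 to 28.2 CPM, Gip is at 19.5 CPM at both 15 and 24 h, and the squares of Cck at 24 h lie at 22.1 CPM, under the 43.1 CPM of all cells.

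Cells were grouped by clustering without the hormone genes and named from marker lists. The clustering of all cells gave no cluster that met the rule for enteroendocrine-like cells. The organoid cluster richest in these markers, of 284 cells, was also rich in goblet markers (Chga, Chgb, Neurog3, Insm1 with Tff3 and Reg4). Splitting that cluster, a step chosen after the data had been seen, gave enteroendocrine-like cells in 2 sub-clusters. One of 48 cells was led by Neurog3, Nkx2-2, Neurod1, Insm1 and Pax4, genes of early precursors. The other, of 33 cells, was led by Cpe, Kcnk16, Scgn, Hmgn3, Map1b and Chgb. Enteroendocrine-like cells were 9 of 2932 cells at 0 h (0.307%, exact binomial interval 0.140 to 0.582), 17 at 6 h (0.397%), 22 at 15 h (0.761%) and 33 of 2218 at 24 h (1.49%, 1.03 to 2.08). The precursor-led cells numbered 8, 15, 13 and 12 and the Cpe-led cells 1, 2, 9 and 21. Another sub-cluster of 29 cells, led by Chgb, Fev and Insm1 but with goblet markers as well, met no name and held 15, 13, 0 and 1 cells. Counted together with the enteroendocrine-like cells, it gave 0.819% (0.525 to 1.22) at 0 h, 0.700% (0.473 to 0.998) at 6 h, 0.761% (0.478 to 1.15) at 15 h and 1.53% (1.06 to 2.14) at 24 h, with intervals that overlapped between 0 and 24 h. The rise in the share therefore depends on where these cells are placed. A further sub-cluster of 42 cells, goblet-like by its markers and led by Reg4, Zg16 and Muc2 with Chga and Chgb, held 12, 15, 8 and 7 cells. The remaining sub-clusters were Paneth-like (61 cells), goblet-like (47 cells) and tuft-like (24 cells), and were not enriched for enteroendocrine markers. Cells with UMIs of at least 3 enteroendocrine markers after thinning to 2000 UMIs were 0.307, 0.234, 0.623 and 1.17%.

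Most Pyy transcripts lay outside the enteroendocrine-like cells. At 24 h, 722 of 863 Pyy UMIs (83.7%) were in the 257 regenerative-like cells, a cluster led by Anxa8, Ly6d, Anxa1, Il1rn and Sprr1a in which all 8 regenerative markers were detected. Pyy was at 147 CPM there (137 to 158) and at 5.48 CPM (4.62 to 6.47) in the other 1961 cells, a ratio of 26.8. The 33 enteroendocrine-like cells held 2 Pyy UMIs (11.0 CPM, 1.33 to 39.6), and enterocyte-like cells, which should lack the gene, held 3 (1.70 CPM). After thinning to 2000 UMIs, 6.23% of regenerative-like cells had a Pyy UMI (3.60 to 9.91), against 0.867% (0.506 to 1.38) of the others and 0 of 33 enteroendocrine-like cells. The depth differed, with a median of 16430 UMIs per regenerative-like cell and 3937 per enteroendocrine-like cell. At 15 h, 72 of 89 Pyy UMIs (80.9%) were in 201 regenerative-like cells (31.0 CPM, 24.2 to 39.0), against 0.709 CPM (0.413 to 1.14) in the rest and no UMI in 22 enteroendocrine-like cells. At 6 h none of the 9 Pyy UMIs was in the 163 regenerative-like cells. At the finer leiden resolution of 1.0, looked at after the data had been seen, this class came apart. A cluster led by Anxa8 and Anxa1 held 5, 24, 105 and 199 cells at 0, 6, 15 and 24 h and 0, 2, 61 and 735 Pyy UMIs (85.2% of all at 24 h, 170 CPM, 158 to 182). A cluster led by Ada and Clca4a, unnamed by the rule, held 106, 142, 96 and 84 cells and 0, 0, 2 and 0 Pyy UMIs. Both clusters also took in cells from outside the regenerative-like class. Of the regenerative-like cells, 105, 135, 95 and 81 lay in the Ada and Clca4a cluster at 0, 6, 15 and 24 h. In the Anxa8 and Anxa1 cluster lay 5, 17, 79 and 137 of them. The make-up of the class thus shifted with time, and at 15 h the Ada and Clca4a cluster still held more of it.

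Pyy was carried by few cells at a high level. At 24 h, 14 cells had at least 10 Pyy UMIs, from 10 to 246 with a median of 30.5, and together held 86.7% of the Pyy UMIs. Of these 14, 11 were regenerative-like, 1 stem-like and 2 unnamed, and none was enteroendocrine-like. They had a median of 1 of 17 enteroendocrine markers detected (range 0 to 3), 3 had a UMI of Chga or Chgb, and 12 had at least 10 UMIs of Clu, with medians of 65.5 Clu and 19 Anxa1 UMIs. None had 10 UMIs of another member and none was called a doublet, while their median depth of 20912.5 UMIs was above that of the library. At 15 h the 2 such cells, with 10 and 28 Pyy UMIs, were both regenerative-like. Sorted by Clu after thinning, the share of cells with a Pyy UMI at 24 h was 0.708% (0.324 to 1.34) at no Clu UMI, 1.06% (0.459 to 2.08) at 1 to 4 and 8.38% (4.86 to 13.2) at 5 or more, a class of 191 cells that held 81.0% of Pyy UMIs. At 15 h the shares were 0.139% (0.0287 to 0.406), 0.616% (0.168 to 1.57) and 1.22% (1 of 82 cells, 0.0309 to 6.61), with overlapping intervals. Cells without an Anxa1 UMI after thinning were 2823 of 2890 at 15 h and held 75.3% of Pyy UMIs. At 24 h such cells were 2069 of 2218 and held 19.9%.

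**Figure D5:**
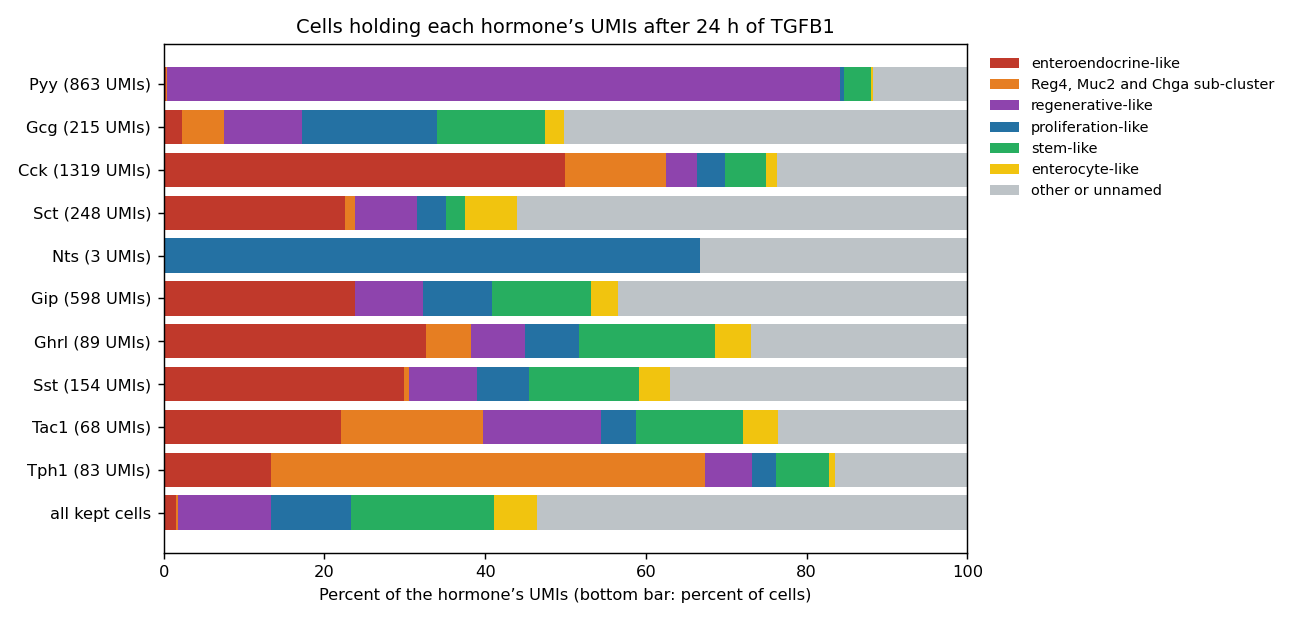
Percent of each hormone's UMIs found in each class of cells after 24 h of TGFB1, with the percent of all kept cells in the bottom bar. Regenerative-like cells hold 83.7% of Pyy UMIs, while enteroendocrine-like cells, 1.49% of cells, hold 49.9% of Cck UMIs and 7 cells of the Reg4, Muc2 and Chga sub-cluster hold 54.0% of Tph1 UMIs.

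Gip, Sct, Ghrl and Sst had their highest CPM in the enteroendocrine-like class at 24 h, and Cck was high in it and in the Reg4 and Chga sub-cluster (3747 CPM). Cck was at 3609 CPM (3339 to 3896) in enteroendocrine-like cells, which held 658 of its UMIs (49.9%) with 643 of them in 1 cell, and at 10.4 CPM in regenerative-like and 10.7 CPM in enterocyte-like cells. After thinning, 15.2% of enteroendocrine-like cells had a Cck UMI. A single cell of the Reg4 and Chga sub-cluster held another 167 Cck UMIs (12.7%). Gip was at 779 CPM in enteroendocrine-like cells (142 UMIs, 126 in 1 cell) and Sst at 252 CPM (46 UMIs, 45 in 1 cell), and Ghrl was at 159 CPM (29 UMIs, 27 in 1 precursor-led cell). Sct was at 307 CPM in these cells (56 UMIs, 36 in 1 cell), at 9.05 CPM in enterocyte-like and at 1.16 CPM in stem-like cells. In regenerative-, proliferation-, stem- and enterocyte-like and unnamed cells Gip was at 10.4 to 18.2 CPM. Each of these values rests on very few cells of 1 library, and the earlier libraries differed. At 15 h none of the 4 cells with at least 10 Gip UMIs was enteroendocrine-like (2 were enterocyte-like and 2 unnamed). At 0 h the 2 such Sst cells, with 42.5% of Sst UMIs, were enterocyte-like and had no UMI of Chga or Chgb, and the 1 such Gip cell was regenerative-like.

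The enterochromaffin genes were found in both secretory groups. The Reg4 and Chga sub-cluster took its goblet-like name from its markers as a whole, but the 2 cells with at least 10 Tph1 UMIs had 11 and 12 of 17 enteroendocrine markers. Tph1 had 45 of its 83.3 UMIs (54.0%, 1010 CPM) in 3 of the 7 Reg4 and Chga cells at 24 h and 11.1 UMIs (13.3%) in enteroendocrine-like cells. Tac1 had 15 of 68 UMIs (22.1%) in 7 enteroendocrine-like cells and 12 (17.6%) in 3 Reg4 and Chga cells. Gcg had only 5 of 215 UMIs (2.33%) in enteroendocrine-like cells, and 107 in unnamed cells. Nts had none in them.

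Within the enteroendocrine-like cells most hormone UMIs were found at 15 and 24 h. Cck had 0, 0, 139 and 658 UMIs in them at 0, 6, 15 and 24 h, Sct 2, 0, 11 and 56, Gip 0, 3, 4 and 142 and Ghrl 10, 2, 10 and 29. Sst, Tac1 and Tph1 had none before 24 h. With the unnamed Chgb and Fev sub-cluster counted, Cck had 35, 0, 139 and 664 UMIs, the 35 in 1 cell with 6 enteroendocrine markers, and Tac1 and Sst had 3 and 1 UMIs at 0 h. Of the 81 enteroendocrine-like organoid cells, 38 had no UMI of any member, 24 had 1 member and 19 (23.5%) had 2 or more. With at least 2 UMIs per member asked for, 8 of 81 (9.88%) held 2 or more members. The most frequent pair was Cck with Sct, in 5 cells, followed by Cck with Tac1 in 4. At 1 UMI, a pair cannot be told from free RNA.

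In the sorted Ki67-RFP+ crypt cells no Pyy UMI was found after irradiation. The non-irradiated library (1846 cells) held 16 Pyy UMIs (0.621 CPM), while the irradiated libraries (719 and 699 cells) held none, which allows up to 0.218 and 0.243 CPM. Regenerative-like cells were 273 and 370 of these, and 0 of the 643 had a Pyy UMI. A floor of 3 cells would be 0.467% of them. That floor concerns cells with a detected UMI and is no limit on cells that express the gene below detection. Clu, at 49.8 and 74.4 CPM in these libraries, was near its organoid level at 6 h of TGFB1 (67.8 CPM) and below the 325 and 773 CPM at 15 and 24 h. Gcg was at 3.22 CPM without irradiation and at 0.146 and 0.243 CPM after it. Sct was the most abundant member in the non-irradiated library, at 5.82 CPM (150 UMIs, of which 70 lay in goblet-like cells), and was at 8.08 and 13.2 CPM after irradiation. The irradiated libraries differed from each other for Gip (7.14 and 0.567 CPM) and for Ghrl, where 97 of 110 UMIs in the second came from 1 enteroendocrine-like cell. Enteroendocrine-like cells were 4 of 1846, 7 of 719 and 3 of 699.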

How the data were processed

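Bulk RNA (QIAGEN RNeasy Micro, BGI sequencing, per the labels' protocols) was deposited by the authors as FPKM in 3 tables, 1 per comparison of vehicle and TGFB1. TopHat2 2.1.0 and Cuffnorm 2.2.1 are named in the submitters' processing notes. Genes averaging 1 FPKM or more over the libraries compared were tested on log2(FPKM + 1) with limma 3.58.1 (trend, robust, R 4.3.3) and Benjamini-Hochberg adjustment over all genes tested, at 0.05. Interactions joined 2 tables.

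Single-cell matrices (PIPseq) were deposited by the authors in a unit of estimated counts, in which 8.67 to 22% of UMIs per library lay in fractional entries. Among members these touched Tph1 and, in the non-irradiated Ki67-RFP library, Ghrl. STARsolo is named in the submitters' processing notes. Cells under 500 UMIs or 250 genes, or above 20% mitochondrial UMIs, were left out. The rest were clustered with scanpy 1.11.5 (leiden resolution 0.6) without 28 hormone genes and named from marker lists. Doublets were marked with scrublet and kept. Only 2 barcodes were shared between libraries. Intervals are exact (95%), and the floor is 3 UMIs.

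The members and gene lists were chosen with earlier results of these data known. Named genes were the 10 members, up to 4 called genes of each list with the largest change and no overlap between groups, and the 3 genes most correlated with each member. The code of the limma fits was tested on simulated data. ATAC data were not analysed here.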

Additional observations from a re-analysis of the deposited data

Results flagged for a closer look

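The effect of TGFB1 on each of the 10 transcripts differed between groups by limma's interaction test, in 2 ways. Many genes did so: 53.1% of 11411 tested genes were called between irradiated and non-irradiated organoids, 25.3% in the direction of the members. Between D11 and D7, 64.5% of 11456 were called, 33% in their direction. Both tests use the same D7 IR libraries. Between irradiated and non-irradiated organoids on D7, the effect after irradiation was higher on the log2 scale by 4.21 for Pyy (adjusted p = 2.14e-07), 1.92 for Nts, 1.60 for Gcg, 1.24 for Cck, 1.08 for Sst, 1.05 for Gip and for Ghrl, 0.95 for Sct, 0.73 for Tph1 (adjusted p = 0.0166) and 0.59 for Tac1. The difference for Tph1 missed the threshold in a limma fit of all 18 libraries (adjusted p = 0.0546). For Nts the TGFB1 libraries were lower without irradiation and higher with it.

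Between D11 and D7 in irradiated organoids, the difference in the effect (D11 minus D7) was -7.13 for Pyy, -2.99 for Gcg, -2.51 for Tac1, -2.49 for Ghrl, -2.45 for Tph1, -2.11 for Cck, -1.93 for Sst, -1.68 for Nts, -0.91 for Gip and -0.82 for Sct. The largest limma adjusted p among these was that of Sct, at 0.00269. For Pyy the difference came with a D11 level that overlapped its vehicle, and for Tac1 with a D11 level below it.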

How the results depend on the processing

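The counts of members called kept within 1.5 times their value under all scaling, filter, pseudocount, model and leave-one-out alternatives, which gave 4 to 6 members in D7 non-IR, 10 in D7 IR, 6 to 8 in D11 IR and 10 in each interaction when 1 library was left out. Asking for a 2-fold change on the log2(FPKM + 1) scale left 2 of 5 members in D7 non-IR and 5 of 10 in D7 IR. Replicate numbers did not pair the libraries (r of same-numbered deviations from -0.09 to 0.21), and the replicate block gave 5, 10, 7, 10 and 10 members in the 5 comparisons. Directions turned only for uncalled members. In D7 non-IR, Tph1 was at 0.0096 with median-ratio scaling and 0.015 with quantile normalization, from -0.10 to 0.10 with 1 library left out (0.074 without vehicle replicate 2). Ghrl was at -0.076 with quantile normalization, -0.048 at the same FPKM sum, and from -0.014 to 0.049 with 1 library left out. Sct ranged from -0.24 to 0.0014 there (0.0013 without TGFB1 replicate 2) and from -0.16 to 0.21 in D11 IR, and Pyy from -0.11 to 0.43 in D11 IR. In D7 non-IR the call of Tac1 was lost without trend and robust fitting and without vehicle replicate 2 or 3 or TGFB1 replicate 2, that of Cck with quantile normalization and in the fit of 18 libraries, while Sst was called with quantile normalization, at the same FPKM sum and without vehicle replicate 1, and Gip without TGFB1 replicate 3. In D11 IR, Gip was called with quantile normalization (0.43), at the same FPKM sum, in the fit of 18 libraries and without vehicle replicate 2. The cause of these changes was not tested. The clustering of all cells named 0% enteroendocrine-like. A cut at 3 markers gave 0.307, 0.234, 0.623 and 1.17% of organoid cells in time order and 0.217 and 0.834% of non-irradiated and first irradiated Ki67-RFP cells (0.286% in the second), the split of the secretory cluster 0.307, 0.397, 0.761 and 1.49% and 0.217 and 0.974% (0.429% in the second), and leiden resolution 1.0 the same 0.217, 0.974 and 0.429%. The split with its unnamed Chgb and Fev part gave 0.819, 0.700, 0.761 and 1.53%. Cells with several members were 23.5% at 1 UMI and 9.88% at 2. The stricter cell filter left 8 members, not 9, apart at 24 h. Single-cell values rest on 1 library per time and, for most hormones, on fewer than 10 rich cells. Alternatives for ATAC peaks were not run.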
